A study of Mus musculus with 20 samples.

Results

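The mineralization genes Alpl, Sp7, Runx2, Ibsp, Spp1, Dmp1, Phex, Mepe and Sparc were followed in RNA-seq of the mouse cochlea. They were chosen by name, as genes of the osteoblast and of bone matrix, and make up 9 of the 24411 genes in the deposited tables. The samples are from mice with a tm2b allele of Adgrb1, the gene of the adhesion receptor BAI1. In this allele exons 3 and 4 are deleted and a lacZ reporter cassette is left in their place, and the control animals were heterozygous (Bai1tm2b/+, label Het), so that every animal carried at least 1 tm2b allele and no wild-type group was compared. The other genotype is homozygous (Bai1tm2b/tm2b, label Homo), and both are on the C57BL/6N background. By the account of the study, the allele removes the long form of BAI1 and spares a short form, so the homozygous mice lack the long form alone. The sensory epithelium and the spiral ganglion were dissected at postnatal day 7 (P7) and 22 (P22), and each library is a pool of 4 mice.

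At P22 there were 3 pools per genotype, held as estimated counts. At P7 there were 7 pools per genotype, of which replicates 5 to 7 are held as estimated counts and replicates 1 to 4 as TPM, a measure corrected for transcript length with a fixed sum per library, in whole numbers. These P7 sets match in number the batches of 3 and 4 pools described for this age, but the labels name no batch, and the unit and the batch cannot be told apart. The genotypes were therefore compared within each of the 3 sets. The ages were compared between the count sets, where age also coincides with the deposited table. The study describes separate batches for P7 and for P22, so that age, table and batch cannot be told apart. Each library is a separate pool, and p values measure the spread between pools.

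Bone is made by osteoblasts, which arise from mesenchymal cells under the transcription factor Runx2 and, downstream of it, Sp7 (osterix). Osteoblasts secrete a collagen matrix and mineralize it: the ectoenzyme Alpl removes the mineralization inhibitor pyrophosphate, and acidic phosphoproteins that bind mineral (Ibsp, Spp1, Dmp1 and Mepe) are deposited in the matrix, of which Dmp1 and Mepe are typical of the osteocyte, the osteoblast's buried descendant. Phex is a membrane peptidase that acts on this protein family and on phosphate balance, and Sparc (osteonectin) is a secreted protein that binds collagen and calcium in bone and in many soft tissues. The cochlea lies within the otic capsule, a bone that forms on a cartilage model and is hardly remodelled afterwards. Its sensory epithelium and neurons rest on bony shelves and canals, so that a dissected sample can hold bone cells beside the tissue it is named for. Spp1 is also expressed outside bone, including in neurons of the spiral ganglion and in the stria vascularis.

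In the GENCODE vM21 annotation of GRCm38 (mm10), Alpl lies on the minus strand of chromosome 4 (137741733 to 137796384), Sp7 on the minus strand of chromosome 15 (102356606 to 102367182), Runx2 on the minus strand of chromosome 17 (44495987 to 44814797), Phex on the minus strand of chromosome X (157162075 to 157415312) and Sparc on the minus strand of chromosome 11 (55394500 to 55423183). The 4 genes of the acidic phosphoproteins stand side by side on the plus strand of chromosome 5, in the order Dmp1 (104202613 to 104214102), Ibsp (104299171 to 104311469), Mepe (104325329 to 104338611) and Spp1 (104435118 to 104441050), within 238438 bp. A predicted gene, Gm42793, overlaps 18.8% of the exon length of Spp1 on the same strand, and Runx2os1 overlaps 5.9% of that of Runx2 on the opposite strand. Neither overlapping gene is among the deposited genes, and it is not given whether the counting included them. If it did, reads in the shared part of Spp1 could be divided between both genes. For Runx2 it is not given whether counting used strand, so both values are uncertain to that extent.

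The sequences before the starts of the cluster genes are shown because these neighbours moved in opposite directions between the ages. Each is the 250 bases upstream of a RefSeq start site on GRCm38.p6, 5′ to 3′ on the gene's strand, with capitals for a RUNX motif (TGTGGT or its complement ACCACA) or a TATA motif (TATAAA or TTTATA):
Dmp1, the second of its RefSeq starts, chr5:104202367-104202616: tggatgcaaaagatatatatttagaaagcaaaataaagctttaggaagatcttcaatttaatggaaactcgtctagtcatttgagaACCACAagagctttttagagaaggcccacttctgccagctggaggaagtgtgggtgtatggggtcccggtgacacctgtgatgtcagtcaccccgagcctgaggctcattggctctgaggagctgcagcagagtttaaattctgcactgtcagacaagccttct
Ibsp, chr5:104299037-104299286: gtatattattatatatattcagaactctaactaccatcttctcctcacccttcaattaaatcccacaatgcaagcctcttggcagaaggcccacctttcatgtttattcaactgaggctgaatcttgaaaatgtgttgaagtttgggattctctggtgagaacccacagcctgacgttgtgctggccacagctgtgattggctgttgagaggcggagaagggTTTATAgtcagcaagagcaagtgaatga
Mepe, chr5:104325079-104325328: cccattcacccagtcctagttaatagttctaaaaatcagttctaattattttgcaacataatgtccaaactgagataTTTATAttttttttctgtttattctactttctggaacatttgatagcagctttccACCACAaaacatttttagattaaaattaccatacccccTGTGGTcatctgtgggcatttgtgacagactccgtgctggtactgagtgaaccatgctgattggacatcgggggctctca
Spp1, the first of its RefSeq starts, chr5:104434861-104435110: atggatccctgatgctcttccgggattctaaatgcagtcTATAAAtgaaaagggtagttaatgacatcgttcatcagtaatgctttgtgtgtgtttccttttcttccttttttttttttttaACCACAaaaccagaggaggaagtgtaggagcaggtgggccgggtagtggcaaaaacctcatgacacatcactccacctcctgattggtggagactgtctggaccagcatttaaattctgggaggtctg

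The RUNX letters stood in these windows of Dmp1 and Spp1 once each and in that of Mepe at 2 places, and the TATA letters in those of Ibsp, Mepe and Spp1. Of the 9 genes, 8 had an entry in the table (all but Sp7). Outside the cluster, Runx2 held the RUNX letters once, and the second start of Alpl held the TATA letters. The windows of Phex, Sparc, the first starts of Alpl and Dmp1 and the second start of Spp1 held neither. Of 32851 RefSeq windows of this length, 14.0% held the RUNX letters and 12.4% the TATA letters on either strand. A run of letters is no proof of a binding site, and the windows do not divide the cluster genes by the direction in which they moved with age.

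The libraries in counts summed to between 31108551 and 58807173 estimated counts, and the number of reads behind the rounded TPM is unknown. No gene of the hair cell (7), supporting cell (6), spiral ganglion neuron (7) or Schwann cell (5) marker lists was at 0 throughout any group. Adgrb1, counted over all of its exons, was at 152 to 167 CPM (counts scaled to a common total) in Bai1tm2b/+ and 100 to 105 CPM in Bai1tm2b/tm2b libraries at P22, and at 32.1 to 56.4 and 21.6 to 31.2 CPM in the P7 count libraries. In the P7 libraries in rounded TPM the genotypes overlapped, at 7 to 12 and 9 to 12 TPM.

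All 9 genes were detected in each of the 20 libraries and passed the filter on low values in every comparison. Levels per length, which allow genes to be set side by side, are counts divided by exon length and scaled to a common total, beside the deposited TPM. At P7, Sparc was the highest in both sets, with medians of 5860 in the count libraries and 4532 in the rounded TPM libraries. Ibsp followed at 715 and 952, and Spp1 at 474 and 719. Ibsp and Spp1 overlapped in range in the counts (386 to 1075 and 307 to 906) and in the rounded TPM (706 to 1353 and 619 to 837), so their order at P7 is not beyond the spread between pools. Dmp1 (130 and 108) and Alpl (109 and 123) formed the next pair, with overlapping ranges and an order that differed between the sets. The transcription factors were lower, with Sp7 at 43.3 and 40 and Runx2 at 23.5 and 23, and Phex lay at 60.2 and 42. Mepe was the lowest, at 7.16 and 5.

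At P22 the order was different. Spp1 led with a median of 4904 TPM and a range of 4198 to 6527, above Sparc at 2874 and a range of 2542 to 3190, without overlap. Spp1 was then higher than 99.96% to 99.98% of all genes with a length in each library. Dmp1 (59.5), Alpl (30.3) and Ibsp (27.0) followed, of which Ibsp overlapped in range with both others, as it ran from 14.9 to 63.7, Dmp1 from 50.9 to 68.8 and Alpl from 18.7 to 32.8. Phex (5.01), Sp7 (3.98), Runx2 (1.45) and Mepe (1.09) were at levels held by about the middle of all genes, with Runx2 above 43.2% to 44.9% of them, where it had been above 63.6% to 76.3% in the P7 count libraries.

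**Figure D1:**
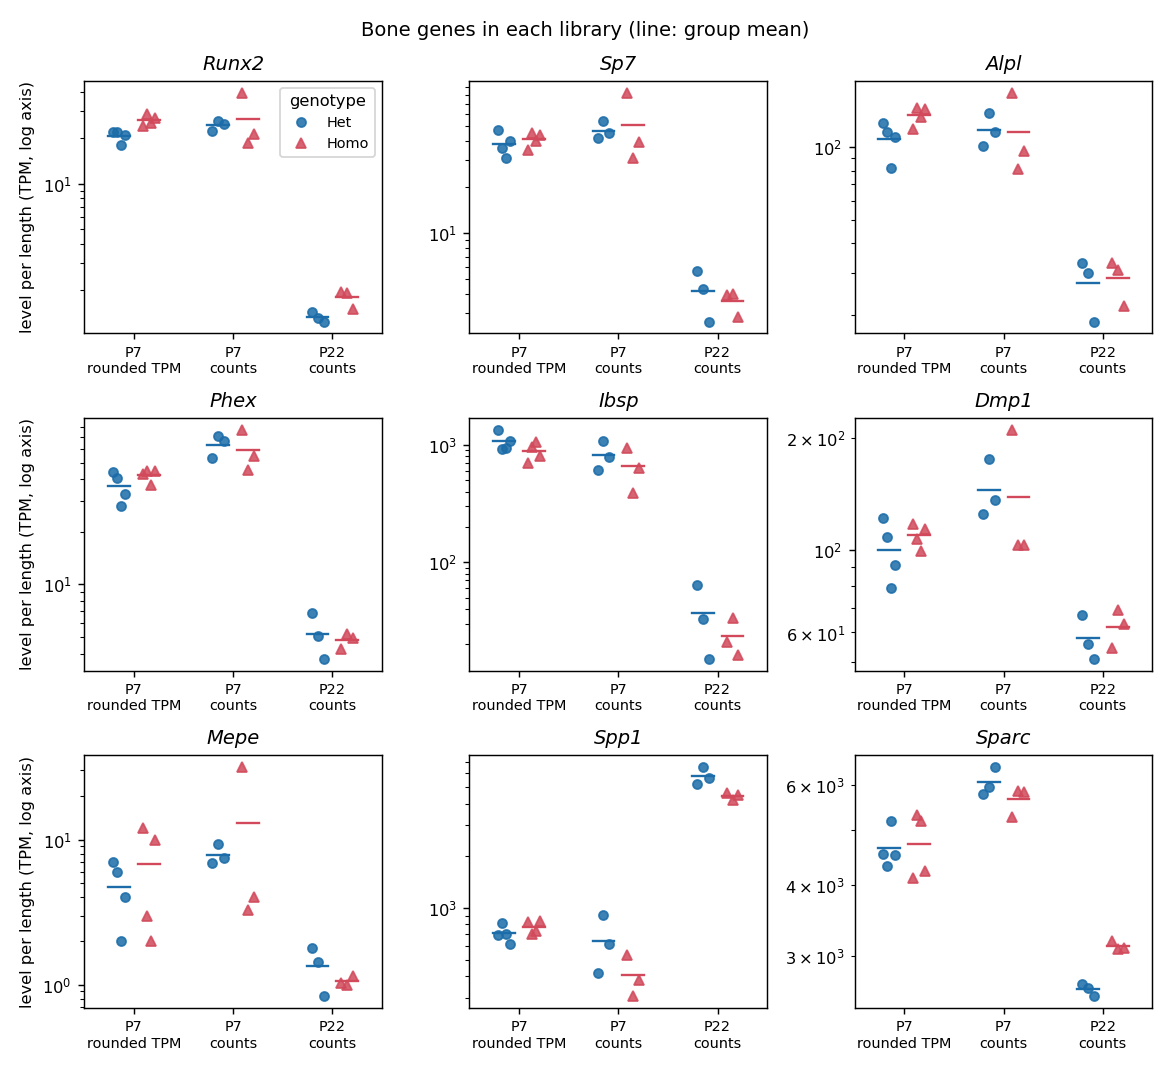
Level per length of each bone gene (vertical log axis, TPM) in the P7 libraries in rounded TPM, the P7 libraries in counts and the P22 libraries in counts. Circles are Bai1tm2b/+ (Het) pools, triangles Bai1tm2b/tm2b (Homo) pools and short lines group means. Spp1 is higher in each of the 6 P22 libraries than in any P7 library, and the other 8 genes are lower at P22 than in the P7 count libraries.

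Between P7 and P22 the bone genes did not move as a block: 7 fell, Spp1 rose and Mepe was lower but did not pass the limit on its error. A gene was called where its log2 fold change was beyond 0.5 with a standard error (SE) under 0.5 and its adjusted p value was under 0.05. Of 16314 genes tested over the 12 libraries in counts (edgeR's quasi-likelihood test, Benjamini-Hochberg adjustment over all of them), 28.7% were called lower and 25.9% higher at P22. For all 9 members the 6 P22 libraries lay outside the range of the 6 P7 libraries, as for 62.6% of all genes tested. Fewer cells of a type and less RNA per cell cannot be told apart in these bulk samples. CPM values in the comparison of ages are scaled over the 12 libraries.

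The transcription factors of the osteoblast were among the members with the larger decreases. Runx2 was at 45.1, 55.3 and 50.8 CPM in the Bai1tm2b/+ and 74.3, 38.2 and 43.8 CPM in the Bai1tm2b/tm2b libraries at P7, and at 3.68, 3.46 and 3.17 and at 5.04, 4.80 and 3.80 CPM at P22. It fell 13.0-fold, a log2 fold change of -3.70 (SE 0.164, adjusted p = 5.41e-10, edgeR). Sp7 was at 32.5, 44.0 and 35.6 CPM in Bai1tm2b/+ and 59.3, 24.3 and 31.3 CPM in Bai1tm2b/tm2b at P7, and at 5.68, 4.37 and 2.61 and at 3.96, 3.87 and 2.79 CPM at P22. It fell 9.80-fold (log2 fold change -3.29, SE 0.240, adjusted p = 4.31e-08, edgeR). The ratio of Sp7 to Runx2 counts within a library stayed near 1, between 0.637 and 0.799 at P7 and between 0.735 and 1.54 at P22.

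Of the enzymes at the osteoblast surface, Phex fell by more than Alpl. Phex, which acts in phosphate handling, went from 88.2 ± 16.4 CPM (SD, n = 6) at P7 to 9.21 ± 1.94 CPM (SD, n = 6) at P22, a log2 fold change of -3.26 (SE 0.154, adjusted p = 8.93e-10, edgeR). Alpl, the tissue-nonspecific alkaline phosphatase, went from 108 ± 26.6 to 32.8 ± 7.24 CPM, or -1.71 (SE 0.186, adjusted p = 2.06e-06, edgeR). Their 95% intervals, from -3.59 to -2.92 and from -2.12 to -1.31, did not overlap. Alpl is also made by cells outside bone.

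The acidic phosphoproteins diverged. Ibsp (bone sialoprotein) was at 290, 535 and 381 CPM in Bai1tm2b/+ and 410, 185 and 309 CPM in Bai1tm2b/tm2b at P7, and at 38.8, 20.4 and 9.04 and at 12.8, 19.7 and 9.66 CPM at P22. This 19.5-fold decrease was the largest among the members (log2 fold change -4.28, SE 0.351, adjusted p = 1.33e-07, edgeR). Its P22 values spread more than those of the other members, and in the Bai1tm2b/+ libraries alone the change was -4.10 with an SE of 0.506, over the limit for a call.

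Spp1 (osteopontin) moved the other way. It was at 157, 360 and 236 CPM in Bai1tm2b/+ and 184, 117 and 147 CPM in Bai1tm2b/tm2b at P7, and at 2517, 3220 and 2731 and at 2252, 1965 and 2142 CPM at P22. The rise was 12.6-fold (log2 fold change 3.66, SE 0.192, adjusted p = 2.12e-09, edgeR). There were 0.450 to 0.672 Spp1 counts per Ibsp count within a library at P7 and 64.9 to 302 at P22. This ratio needs no scaling between libraries.

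Dmp1, a protein of osteocytes, changed little by comparison. It was at 78.8, 116 and 87.9 CPM in Bai1tm2b/+ and 122, 66.0 and 66.3 CPM in Bai1tm2b/tm2b at P7, and at 54.5, 46.3 and 41.2 and at 44.6, 54.0 and 50.4 CPM at P22. The decrease was 1.84-fold (log2 fold change -0.88, SE 0.157, adjusted p = 1.85e-04, edgeR). Its position relative to its neighbour Ibsp was inverted, with 2.81 to 4.66 Ibsp counts per Dmp1 count at P7 and 0.192 to 0.711 at P22. Runx2 counts per Dmp1 count went from between 0.476 and 0.660 to between 0.0675 and 0.113.

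Mepe, also of osteocytes, was scarce. At P7 it was at 2.66, 3.75 and 2.92 CPM in Bai1tm2b/+ and 11.2, 1.28 and 1.56 CPM in Bai1tm2b/tm2b, and at P22 it was between 0.411 and 0.890 CPM. The log2 fold change was -2.69 with an SE of 0.510 (adjusted p = 3.17e-04, edgeR). The call failed on the error alone, and Bai1tm2b/tm2b replicate 5 at P7 carried much of it. Without that library the change was -1.83 (adjusted p = 5.39e-06, edgeR), with an SE of 0.208.

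Sparc, which is not restricted to bone, fell 1.61-fold, from 5116 ± 513 CPM (SD, n = 6) to 3176 ± 292 CPM (SD, n = 6), a log2 fold change of -0.69 (SE 0.0792, adjusted p = 3.49e-06, edgeR). The count ratio of Spp1 to Sparc went from between 0.0227 and 0.0662 at P7 to between 0.594 and 1.08 at P22.

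The directions were the same when the P22 libraries were set against the other P7 pools, those in rounded TPM, as a ratio of mean levels per length without a test. On the log2 scale Spp1 was higher at P22 by 2.79, while Ibsp was at -5.01, Runx2 at -3.93, Sp7 at -3.35, Phex at -2.98, Mepe at -2.25, Alpl at -2.14, Dmp1 at -0.80 and Sparc at -0.71. Both P7 sets were processed differently, and over 11343 genes their levels per length had a Spearman correlation of 0.853, with the members at 0.551 (Mepe) to 1.41 (Spp1) times the count set in the rounded TPM set. Scaling the 12 libraries by total counts alone moved the median over all genes from -0.05 to -0.34 and the share of calls that were higher from 47.5% to 30.8%. Relative to that shift the members held their place, with Dmp1 at -1.18 and Sparc at -0.98, and 8 of 9 were called.

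**Figure D2:**
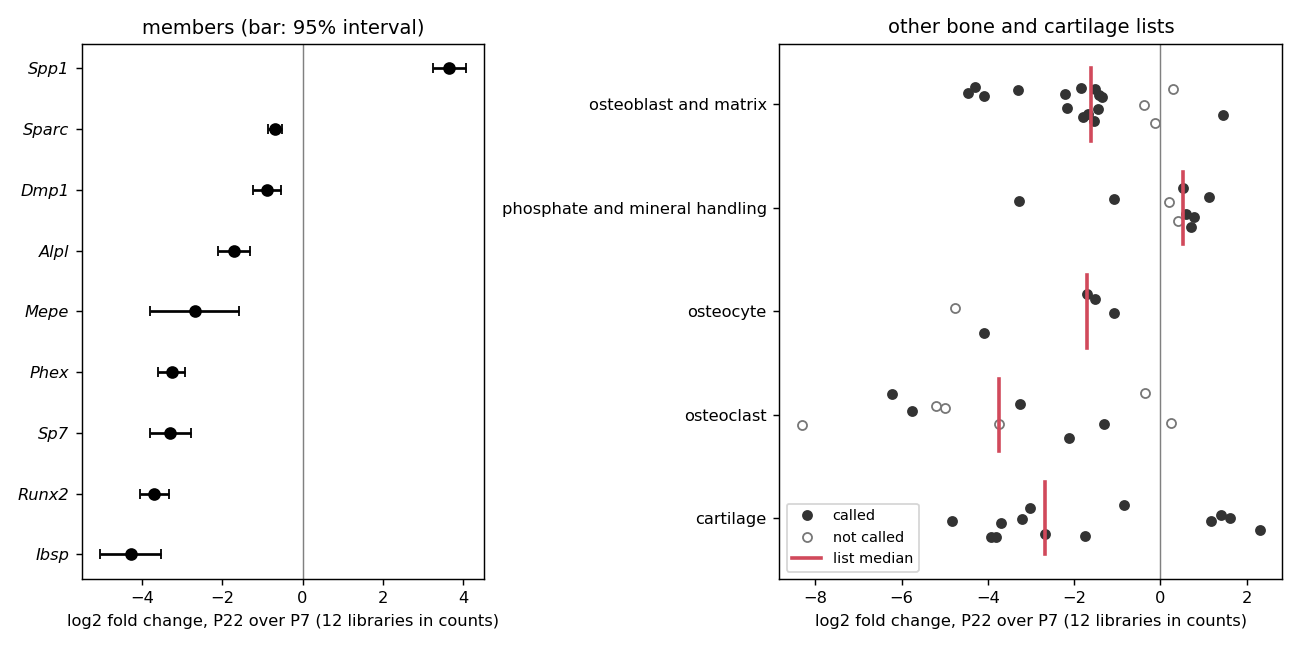
Log2 fold change of P22 over P7 (horizontal axis) for the bone genes, with 95% intervals, and for the genes of further lists. In the lists each point is a gene, filled where called, and the red line is the list's median. Spp1 at 3.66 stands alone to the right of 0 among the members, and Ibsp at -4.28 is farthest to the left.

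Other genes of bone followed in fixed lists were mostly lower at P22, apart from those that handle phosphate. Over all genes tested, 28.7% were called lower and 25.9% higher. In the list of osteoblast and matrix genes, 14 of the 18 tested were called lower, 1 higher and 3 were not called, with a median log2 fold change of -1.60 against -0.05 for all genes. Large changes among them were those of the osteoblast homeobox genes Dlx5 (-4.46) and Dlx6 (-4.30) and of Ifitm5 (-4.09), a membrane protein of osteoblasts. The bone collagen gene Col1a1 fell by 2.21. Bglap and Bglap2 (osteocalcin) were lower too, at -1.51 and -1.35, but they are nearly identical copies between which counts could be divided.

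The list of phosphate and mineral handling differed from this. Of 9 genes tested, 5 were called higher, 2 lower and 2 were not called, with a median of 0.51. Over all genes tested, 25.9% were called higher and 28.7% lower. Smpd3, a sphingomyelinase needed for mineralization, fell (-3.28), as did Enpp1 (-1.08), which makes pyrophosphate. Fgf23, a phosphate hormone (1.14), and Fam20c, the kinase that phosphorylates secreted matrix proteins (0.79), rose. Fgf23 was scarce, at means of 0.184 CPM at P7 and 0.407 CPM at P22. The other genes called higher, named here after their values were seen, were Phospho1 (0.72), Ank (0.59) and Slc20a1 (0.51).

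Genes of the osteocyte list were lower, with 4 of 5 called lower and none higher (median -1.71), namely Ostn (-4.08), Sost (-1.71), Irx5 (-1.52) and Pdpn (-1.07). Ostn and Sost were scarce, at means of 1.82 and 0.916 CPM at P7 and 0.106 and 0.276 CPM at P22. Dmp1 (-0.88) and Mepe (-2.69) were followed as members and are not in this list. Osteoclast genes, those of the cells that resorb bone, were called lower in 5 of 11 and higher in none. The shares over all genes tested were 28.7% lower and 25.9% higher. Mmp9 (-6.23), Acp5 (-5.76) and Ctsk (-3.25), which encode a protease, a phosphatase and a protease of osteoclasts, and the receptor gene Oscar (-2.12) changed most among the calls. The osteoclast median was -3.74, or -3.50 with Ocstamp, which was at 0 in every P22 library, set at its bound of 3 counts in each library. Tnfrsf11b (osteoprotegerin), which restrains osteoclasts, was at 0.25 and not called. Genes of the cartilage list were called lower in 9 and higher in 4 of 13 (median -2.67), with Col9a1 (-4.84), Matn1 (-3.92), Col2a1 (-3.81) and Col10a1 (-3.69) lowest. Whether these transcripts came from cartilage or from the sensory epithelium and other dissected tissue was not tested. Those called higher, named after their values were seen, were Acan (2.30), Hapln1 (1.61), Comp (1.41) and Ucma (1.18).

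Summed levels of cell type markers also moved with age, where 28.7% of all genes tested were called lower and 25.9% higher. The summed CPM of the 7 neuron markers was 1126 to 2562 at P7 and 9833 to 15230 at P22, and 6 of the 7 were called higher. The 5 Schwann cell markers summed to 4942 to 15250 and 20170 to 24900 CPM, all called higher. The 7 hair cell markers summed to 585 to 920 and 400 to 592 CPM with 5 called lower, the 6 supporting cell markers to 4943 to 9096 and 991 to 1280 CPM with 4 called lower, and the 6 macrophage markers to 208 to 261 and 127 to 191 CPM with 4 called lower. Most of the supporting cell sum at P7 was Tectb, at 5510 CPM on average against 32.0 CPM at P22. In the same list Gjb6 was called higher and Gjb2 was not called. Fibrocyte markers (5) were divided, with 2 called higher and 3 lower, and erythroid markers (4 tested) were all called higher. Of the 7 neutrophil markers 0 were called. The part of these shifts in the levels of the bone genes was not tested.

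Neighbours in the cluster on chromosome 5 differed in the size and the direction of their change. In the order of the chromosome, the log2 fold change was 1.46 for Sparcl1, a relative of Sparc, -0.88 for Dmp1, -4.28 for Ibsp, -2.69 for Mepe and 3.66 for Spp1. The flanking genes, named for their position after their values were seen, were at 0.55 (Nudt9), -0.79 (Pkd2) and -1.23 (BC005561). The tooth gene Dspp, between Sparcl1 and Dmp1, was at 0.179 CPM at P7 and 0.0272 CPM at P22 on average and was not tested. Ibsp and Spp1, with Mepe between them, had the lowest and the highest values of the members.

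**Figure D3:**
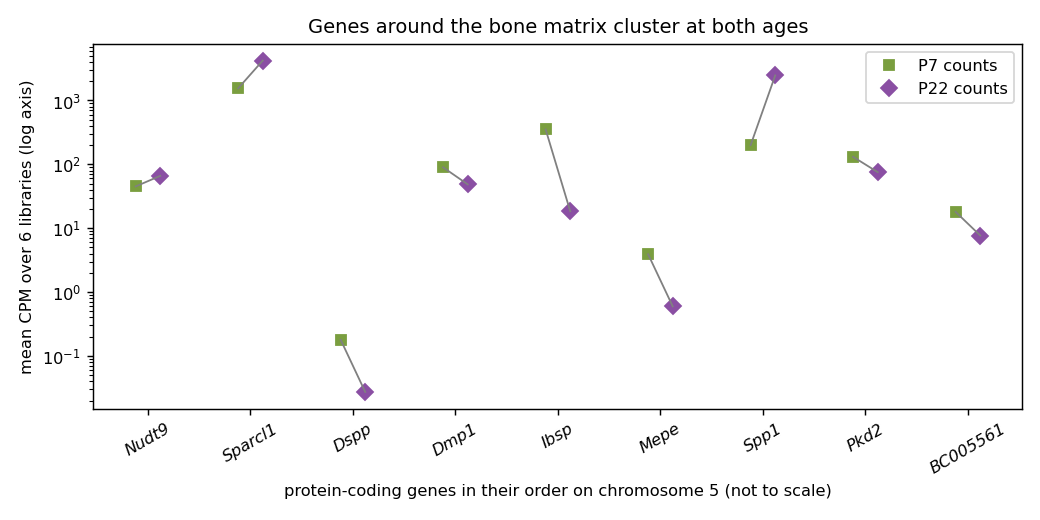
Mean CPM (vertical log axis) over the 6 P7 (squares) and the 6 P22 (diamonds) libraries in counts for the genes around the cluster on chromosome 5, in their order but not to scale. The lines tilt down for Dmp1, Ibsp and Mepe and up for Sparcl1 and Spp1.

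The genotypes were compared within each set. At P22, 0 of 9 were called, where 3.15% of the 15443 genes tested were (edgeR). By the adjusted p value alone 2 of 9 passed, against 12.3% of all genes, and 3 of 9 had genotypes that did not overlap, against 33.7%. CPM in these comparisons is scaled within each set.

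Spp1 was at 2275, 2898 and 2467 CPM in Bai1tm2b/+ and at 2039, 1780 and 1950 CPM in Bai1tm2b/tm2b libraries at P22. The homozygous libraries were all below the heterozygous ones, with a log2 fold change of -0.41 (SE 0.0924, adjusted p = 0.0196, edgeR, 95% interval -0.61 to -0.20). The change is under the limit of 0.5 for a call. Without 1 library at a time the adjusted p value (edgeR) ran from 0.0241 to 0.0787, and it passed 0.05 without Bai1tm2b/tm2b replicate 2 (0.0787) or replicate 3 (0.0501).

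Sparc was at 2693, 2682 and 2549 CPM in Bai1tm2b/+ and at 3235, 2998 and 3088 CPM in Bai1tm2b/tm2b at P22. All homozygous libraries were above, by 0.23 on the log2 scale (SE 0.0641, adjusted p = 0.0389, edgeR). This too was below the size for a call, and the adjusted p value (edgeR) ran from 0.0370 to 0.111 without 1 library at a time, over 0.05 without Bai1tm2b/+ replicate 1 or 3 or Bai1tm2b/tm2b replicate 1 or 3. For Spp1 and for Sparc, 3 pools against 3 give an exact permutation p of 0.1 at the least, and both had that value.

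Runx2 was at 3.33, 3.11 and 2.86 CPM in Bai1tm2b/+ and 4.57, 4.35 and 3.46 CPM in Bai1tm2b/tm2b at P22. The groups did not overlap, and the log2 fold change was 0.41 (SE 0.174, adjusted p = 0.147, edgeR, 95% interval 0.03 to 0.80). Ibsp was at 35.1, 18.4 and 8.16 and at 11.6, 17.8 and 8.79 CPM. The wide spread left it at -0.69 (SE 0.411, adjusted p = 0.303, edgeR) with a 95% interval from -1.59 to 0.22. The other members were at -0.37 (Mepe), -0.24 (Sp7), -0.14 (Phex), 0.05 (Alpl) and 0.08 (Dmp1), each with an interval that held 0.

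Several marker sums separated the genotypes at P22, on the scale of the 12 libraries. Among single genes, 33.7% of all those tested had genotypes that did not overlap and 3.15% were called. Neuron markers summed to 13340 to 15230 CPM in Bai1tm2b/+ and 9833 to 11220 CPM in Bai1tm2b/tm2b, with 1 of 7 called lower (Nefh). Hair cell markers summed to 400 to 422 and 506 to 592 CPM with Otof and Ocm called higher of the 7, and supporting cell markers to 991 to 1167 and 1230 to 1280 CPM with Fgfr3 and Tectb called higher of the 6. These genes are named after their values were seen. Neutrophil markers of the marrow, which bone can hold, summed to 7.26 to 18.5 and 7.54 to 64.4 CPM, with overlap. Their median log2 fold change was 1.85 and 0 of 7 were called, while S100a9 alone had an adjusted p value under 0.05 (2.23, SE 0.597, adjusted p = 0.0363, edgeR). The part of these markers in the values of Spp1 and Sparc was not tested. In the bone lists 1 gene was called, Omd (0.68), a proteoglycan of mineralized tissue, out of 17 tested in the osteoblast and matrix list, and 0 in the phosphate (9), osteocyte (3) and osteoclast (7) lists. By the adjusted p value alone, against 12.3% of all genes, 3 of 17 passed in the osteoblast and matrix list (Omd and Bmp4 higher, Sparcl1 lower) and 3 of 9 in the phosphate list (Phospho1 and Fam20c lower, Mgp higher). The summed level of the osteoblast and matrix genes was 6156 to 6549 CPM in Bai1tm2b/+ and 5428 to 5882 CPM in Bai1tm2b/tm2b, and that of the phosphate genes 938 to 954 and 860 to 930 CPM. Most of the first sum was Sparcl1, at 4216 CPM on average at P22, and that list's median log2 fold change was -0.04. The osteoclast sum lay the other way, at 60.4 to 79.9 and 81.0 to 86.4 CPM, of which Tnfrsf11b averaged 42.7 CPM. Osteocyte sums overlapped, at 44.7 to 52.4 and 51.2 to 61.0 CPM. In the cartilage list 1 of 12 was called, Hapln1 (-0.63).

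In the P7 count libraries 0 of 9 were called, and 0.0% of the 16026 genes tested (edgeR), although 763 genes had an unadjusted p value under 0.05 and DESeq2 called 48 genes, none of them a member. No member had genotypes that did not overlap, against 10.4% of all genes. Spp1 was at 173, 392 and 258 CPM in Bai1tm2b/+ and 211, 129 and 161 CPM in Bai1tm2b/tm2b, a log2 fold change of -0.72 (SE 0.302, adjusted p = 0.894, edgeR). Ibsp was at -0.38 (SE 0.323) and Mepe at 0.64 (SE 0.794), and the other 6 members lay between -0.15 and 0.08.

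A single homozygous pool, replicate 5, was apart from the rest at P7 for Runx2, Sp7 and Mepe. It had the highest values of the 6 count libraries for Runx2 (85.1 CPM, the others 42.0 to 60.3), Sp7 (68.0 CPM, the others 26.8 to 47.9) and Mepe (12.9 CPM, the others 1.41 to 4.09). Alpl (164 CPM), Dmp1 (140 CPM) and Phex (117.2 CPM) were highest there too. Bai1tm2b/+ replicate 6 was close behind for these, at 147, 127 and 116.8 CPM, and was the highest for Ibsp and Spp1. Sparc was lowest in homozygous replicate 5. Without that library the log2 fold changes were -0.42 for Sp7, -0.30 for Runx2 and -1.12 for Mepe, with adjusted p values of 0.581, 0.545 and 0.267 (edgeR). All 3 were positive with it. In this set the neutrophil markers had a median of 1.97 with 0 of 6 tested called, and summed to 6.06 to 6.55 CPM in Bai1tm2b/+ and 4.47 to 52.6 CPM in Bai1tm2b/tm2b libraries.

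In the P7 libraries in rounded TPM, 0 of 9 were called, against 0.809% of 11740 genes (limma), and 1 of 9 had genotypes that did not overlap, against 14.8%. This was Runx2, at 22, 22, 18 and 21 TPM in Bai1tm2b/+ and 24, 29, 25 and 27 TPM in Bai1tm2b/tm2b. After scaling between libraries (TMM) the change was 0.22 on the log2(TPM + 1) scale (SE 0.0728, adjusted p = 0.0727, limma). The listed TPM, the overlap counts and the exact permutation test are without this scaling. Its factors were 0.909 to 1.01 in Bai1tm2b/+ and 1.02 to 1.07 in Bai1tm2b/tm2b libraries. Values without it therefore lie relatively higher in Bai1tm2b/tm2b. The exact permutation test gave p = 0.0286, the smallest that 4 pools against 4 allow, before any correction for the 9 genes. Ibsp was at 1353, 929, 938 and 1086 TPM and at 706, 965, 1062 and 813 TPM, with overlapping groups and a change of -0.39 (SE 0.147, adjusted p = 0.0962, limma). Spp1, at 619 to 818 and 703 to 837 TPM, was at 0.01 with a 95% interval from -0.18 to 0.21. This stands beside -0.72 in the P7 counts, and the difference between the P7 sets was not tested. In the bone lists 0 genes were called, and 1 of 11 in the cartilage list, Acan (0.52).

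The genotype effects at both ages were compared directly in the 12 libraries in counts. The difference, P22 minus P7, was called for 0 of 9 members and for 0.0306% of 16314 genes (edgeR). Sparc had the lowest adjusted p value, with a difference of 0.38 (SE 0.158, adjusted p = 0.424, edgeR), as its genotype change was 0.23 at P22 and -0.14 at P7. For Spp1 the difference was 0.33 with a 95% interval from -0.42 to 1.09, and for Ibsp it was -0.28 with an interval from -1.64 to 1.08. These intervals are wide enough to hold changes well over the limit for a call.

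**Figure D4:**
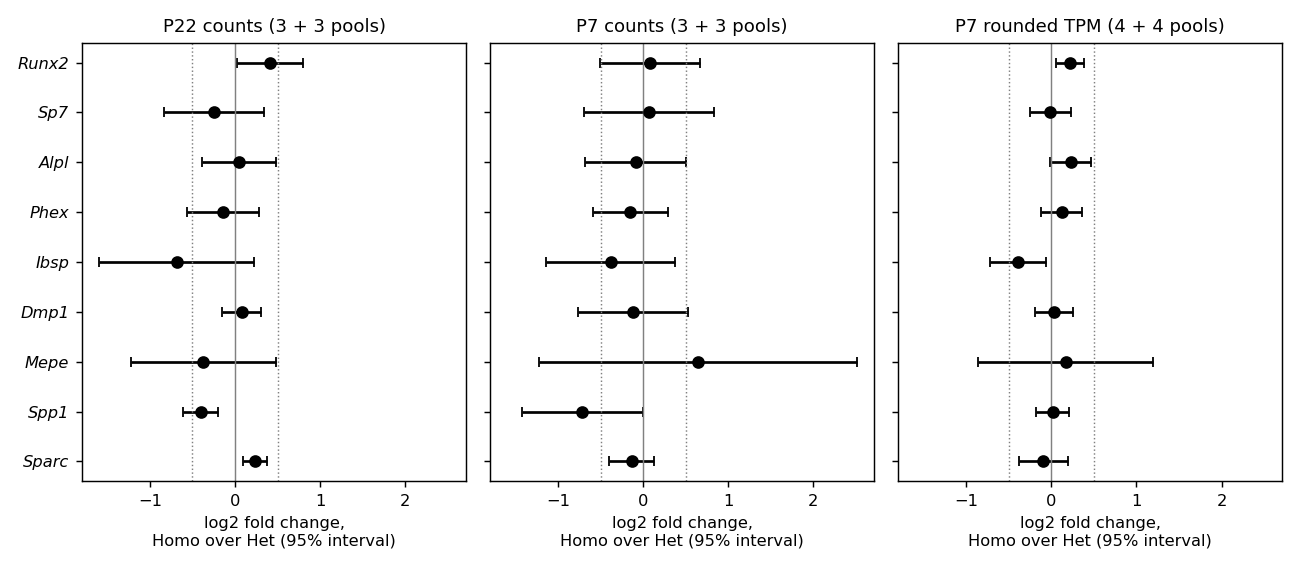
Log2 fold change of Bai1tm2b/tm2b over Bai1tm2b/+ (horizontal axis) with 95% intervals for each bone gene in the P22 counts, the P7 counts and the P7 rounded TPM. Dotted lines mark the limit of 0.5 for a call. The intervals of Spp1 (-0.61 to -0.20), Sparc and Runx2 (0.03 to 0.80) at P22 exclude 0. So do those of Spp1 in the P7 counts and of Runx2 and Ibsp in the P7 rounded TPM. Mepe has the widest interval at P7. The intervals are not adjusted for the number of genes.

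The bone genes varied together between pools once genotype means had been removed. Over the 6 P7 count libraries, all 21 pairs among the 7 members other than Spp1 and Sparc had a positive Pearson correlation of log2 CPM, from 0.727 to 0.991 (median 0.931). Over the 6 P22 libraries all 21 were positive as well, from 0.191 to 0.962 (median 0.795). These pairs share libraries and scaling, and at P7 replicate 5 of Bai1tm2b/tm2b is the highest for many of them, so the values are descriptions of these pools.

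Spp1 and Sparc stood outside this pattern, in different ways. Spp1 was positively correlated with all 7 at P7 (0.551 to 0.907) but with 1 of 7 at P22, where it ranged from -0.56 to 0.08. Sparc was negatively correlated with all 7 at P7 (-0.83 to -0.37) and positively with 6 of 7 at P22 (highest 0.702). Ordered by likeness to the mean profile of the 7 members over the 12 libraries, again without group means, genes with high correlations were Panx3 (0.972), Gimap8 (0.969), Cxcl12 (0.967), Kcnk5 (0.958), Stat6 (0.949), Plxna4os1 (0.944), Col5a2 (0.943), Pth1r (0.938) and Adgrf5 (0.935), out of 16307. Spp1 came at place 1700 (0.583) and Sparc at place 12346 (-0.42).

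**Figure D5:**
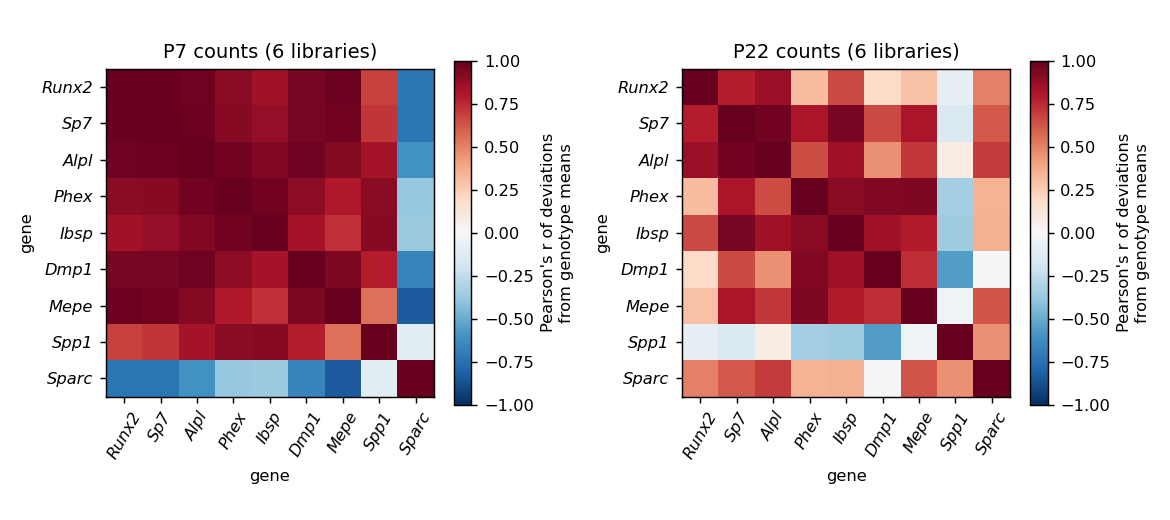
Pearson correlation (colour, -1 to 1) between bone genes of their deviations from genotype means in log2 CPM, over the 6 P7 and the 6 P22 libraries in counts. The 21 pairs of the first 7 genes are positive at both ages, and the row of Spp1 turns from positive at P7 to mostly negative at P22.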

How the data were processed

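The authors aligned paired-end poly A RNA-seq reads to mm10 through the nf-core pipeline for RNA. STAR, Salmon and DESeq2 are named in the submitters' processing notes, and versions, annotation and use of strand are not given in the sources used here. The deposited values are estimated counts per gene for P22 and for P7 replicates 5 to 7. For P7 replicates 1 to 4 the deposited values are whole numbers with a total near that of TPM, and were read as rounded TPM and recorded as a score. No column was left unused.

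Estimated counts were rounded, filtered with filterByExpr, scaled by TMM and tested with edgeR 4.0.16 in R 4.3.3. Rounded TPM were scaled by TMM and tested with limma 3.58.1 and a mean-variance trend, as log2(TPM + 1), leaving out genes under a mean of 5. The call limits follow those of the study for P22, and no block was used. DESeq2 1.42.0 was an alternative. Each fit was tested on simulated data. Levels per length used GENCODE exon lengths, found for 23350 genes. From each list, the 4 called genes with the largest changes are named, and likewise the 10 genes most like the members, except 1 gene that is not reported here. The members and lists were chosen with earlier results of these data known.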

Additional observations from a re-analysis of the deposited data

How the results depend on the processing

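No member was called between genotypes in any set or in the difference between ages under any alternative that kept the call limits, and with the adjusted p value alone 2 members passed at P22. There the adjusted p value of Spp1 was from 2.37e-05 (DESeq2) to 0.0787 and that of Sparc from 0.000607 (DESeq2) to 0.111 over the alternatives. All 9 members kept their direction between ages under every alternative run, and each kept its call except Ibsp in Bai1tm2b/+ alone, while Mepe gained one without the filter, in Bai1tm2b/+ alone or without P7 Bai1tm2b/tm2b replicate 5, 6 or 7. Counts over all genes moved more. At P22 they were 1904 with the adjusted p value alone (487 with the limits) and 270 to 588 without 1 library. In the P7 counts DESeq2 called 48. In the rounded TPM 95 became 0 with a mean of at least 1 TPM, 0 without a filter, 293 without TMM scaling (96.9% higher against 81.1%, with the median of all genes at 0.118), 958 with the adjusted p value alone, and 0 to 332 without 1 library. For the difference between ages 5 became 119 with DESeq2, 8 without a filter, and 0 to 101 without 1 library, the latter without P7 Bai1tm2b/tm2b replicate 5. The cause was not tested.

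The correlations of deviations between same-numbered libraries were at most 0.0806. These values cannot show whether pools were matched by litter or dissection. The study describes the homozygous mice as littermates of the controls, and the labels name no litter. With the replicate block, 466 genes were called at P22, 0 in either P7 set and 2 for the difference between ages, with 0 members in each. Signs turned only for changes that were not called. They did so with the block for Sp7 (-0.034) and Mepe (-0.10) in the P7 counts, without TMM scaling for Sp7 (0.10) and Sparc (0.017) in the rounded TPM, and with DESeq2 for Phex (-4.2e-05) in the difference between ages. Without 1 library at a time, signs turned for Sp7 (-0.50 to 0.032), Phex (-0.34 to 0.10), Alpl (-0.17 to 0.20) and Dmp1 (-0.014 to 0.19) at P22. In the P7 counts they turned for Sp7 (-0.42 to 0.32), Alpl (-0.43 to 0.096), Dmp1 (-0.51 to 0.054), Runx2 (-0.30 to 0.27) and Mepe (-1.12 to 1.09), and in the rounded TPM for Sp7 (-0.098 to 0.064), Spp1 (-0.029 to 0.061), Dmp1 (-0.064 to 0.11) and Mepe (-0.11 to 0.53). The difference between ages turned for Ibsp (-0.66 to 0.35), Alpl (-0.051 to 0.48), Phex (-0.16 to 0.27), Spp1 (-0.017 to 0.58), Sp7 (-0.54 to 0.18) and Mepe (-1.41 to 0.75). These values rest on 3 or 4 pools per group, and the depth behind the rounded TPM is unknown. Mepe in rounded TPM was between 2 and 12, where a step of 1 is large.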
